A study of Mus musculus with 9 samples.

Results

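Axon guidance genes were examined in the mouse iris after corneal alkali injury. They are the genes whose symbols name a vertebrate semaphorin (Sema3 to Sema7), a plexin, an Eph receptor, an ephrin, a Slit, a Robo, a netrin or an Unc5 receptor. The count table listed 66 of them among 18349 genes, of which 35 encode ligands and 31 encode receptors. The members were 20 semaphorins, 9 plexins, 9 EphA and 5 EphB receptors, 5 ephrin-A and 3 ephrin-B ligands, 3 Slits, 4 Robos, 4 netrins and 4 Unc5 receptors. Iris RNA was sequenced in 9 libraries from 3 groups of C57BL/6J mice, with 3 libraries per group and 3 irises combined per library. At 6 weeks of age, the cornea of injured VEGFR3 fl/fl mice, and likewise that of injured VEGFR3 iLECko mice, was exposed for 60 seconds to 0.5 μL of 1 M NaOH, while Sham VEGFR3 fl/fl mice received PBS. Every group, the littermate VEGFR3 fl/fl controls included, was given tamoxifen at 80 mg/kg on days 13 to 17, and irises were collected at 10 weeks of age, 28 days after injury. VEGFR3 iLECko mice carry floxed VEGFR3 and Prox1-CreERT2, so deletion is limited to cells that express Prox1, such as lymphatic endothelial cells, and the whole iris was sequenced rather than those cells. The first comparison asked how these genes differed after injury, and the other asked how they differed with lymphatic deletion of VEGFR3 in injured eyes. Both comparisons use the injured VEGFR3 fl/fl libraries and are therefore not independent.

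Guidance cues steer growing axons and sprouting vessels by attraction or repulsion. Semaphorins signal through plexins, in the case of most secreted class 3 members together with neuropilins. Ephrins are bound to the membrane of one cell and Eph receptor tyrosine kinases to that of its neighbour, so that both cells can receive a signal. Slits act on Robo receptors, and netrins act on Dcc, neogenin and the Unc5 receptors. The iris is reached by sensory, sympathetic and parasympathetic axons whose cell bodies lie in ganglia outside the eye, and many of these ligands and receptors are also made by endothelial, epithelial, stromal and immune cells. In RNA from the whole iris, fewer cells of a type and less RNA per cell cannot be told apart.

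Levels are given as CPM (counts scaled to a common library size) after TMM scaling, a method that corrects for differences in RNA composition, and triplets of values follow replicates 1 to 3. Total counts per library ranged from 16617187 to 18306359. A gene was called higher or lower when edgeR's quasi-likelihood test gave an adjusted p under 0.05 over the 15010 genes tested and the change exceeded 1.5-fold. Only Epha10 and Ntn5 fell below the filter on low counts, with at most 0.665 CPM and 0.293 CPM in any library. The chi-square per degree of freedom between replicates was 5.13 to 11.2 in Sham, 17.4 to 27.9 in iLECko and 26.7 to 76.2 in injured VEGFR3 fl/fl, where replicate 1 stood farthest from the other two. The summed level of 4 Y-linked genes was 51.1, 82.3 and 167 CPM in Sham and 151, 136 and 0.804 CPM in injured VEGFR3 fl/fl, but 1.11, 0.736 and 0.806 CPM in iLECko. Between the injured groups, sex as read from these genes therefore nearly coincided with genotype. Only injured VEGFR3 fl/fl replicate 3 departed from this, and with 1 such library the effects of sex and genotype cannot be told apart. Flt4, the gene of VEGFR3, was at 16.8, 20.7 and 23.0 CPM in injured VEGFR3 fl/fl and at 27.9, 21.0 and 27.4 CPM in iLECko. It was therefore not lower in the libraries labelled iLECko (log2 fold change 0.33 ± 0.15 (SE), edgeR adjusted p = 0.20). Counts per gene would include reads outside a deleted exon, and the deletion itself was not tested. The genotype tags of iLECko replicates 2 and 3 name other VEGFR numbers, whereas their titles and descriptions name VEGFR3.

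Marker genes of the cell types that an iris sample can hold moved with injury. Summed macrophage markers were 319 to 330 CPM in Sham, 2723 to 3000 CPM in injured VEGFR3 fl/fl and 1670 to 1909 CPM in iLECko, with 8 of 8 called higher after injury and 5 of 8 called lower in iLECko. T cell markers summed to 1.05 to 1.35, 13.6 to 14.9 and 7.13 to 8.50 CPM in the same order, with 6 of 6 called higher after injury and 0 of 6 called in iLECko. Fibroblast markers (3799 to 4366, 15501 to 22500 and 16406 to 20721 CPM, 4 of 6 higher after injury) and blood endothelial markers (511 to 551, 1228 to 1417 and 1217 to 1388 CPM, 5 higher and 1 lower of 8) were higher after injury. Lower sums were found for markers of pigment cells (27246 to 29093, 3325 to 5739 and 4975 to 7010 CPM, 5 of 5 lower), smooth muscle (7271 to 9490, 1482 to 3175 and 2244 to 3697 CPM, 4 of 6 lower), Schwann cells (550 to 636, 387 to 397 and 397 to 424 CPM, 4 of 6 lower) and iris and ciliary epithelium (1707 to 1776, 1258 to 1423 and 1290 to 1488 CPM, 4 lower and 1 higher of 5). The epithelial marker called higher was Aqp1 (499 to 558, 945 to 1081 and 774 to 1025 CPM), the largest part of that sum after injury. Pax6, among those called lower, was at 737 to 778, 194 to 224 and 282 to 339 CPM. In the Schwann cell sum, Pmp22 was at 281 to 309, 273 to 295 and 265 to 294 CPM and was not called. Lymphatic endothelial markers summed to 783 to 919, 609 to 856 and 778 to 864 CPM, mostly from Reln and Pdpn (means of 505 and 337 CPM in Sham), whereas Lyve1, Prox1, Ccl21a and Flt4 had Sham means of 14.6 CPM or less. After injury, Reln was called lower and Pdpn and Ccl21a higher, the last carried by injured replicate 1 (92.4, 4.62 and 0 CPM), and Reln was called higher in iLECko. Lyve1 was at 3.56 to 4.21, 0.303 to 3.98 and 1.11 to 3.74 CPM, and Prox1 at 0.96 to 3.05, 0.574 to 4.49 and 0.935 to 1.21 CPM. Neither was called in either comparison. The paper describes the Sham iris as alymphatic, so a sum made mostly of Reln and Pdpn does not measure lymphatic endothelium. Neuronal markers summed to 36.4 to 56.9, 31.7 to 93.7 and 35.2 to 47.4 CPM, with 3 of 6 tested (Tubb3, Stmn2 and Nefl) called higher after injury. Syt1, at 32.8, 25.1 and 26.0 CPM in Sham, was lower in every injured VEGFR3 fl/fl library (1.15, 19.4 and 1.67 CPM). It was not called (edgeR adjusted p = 0.0836). Injured replicate 2 had the highest injured VEGFR3 fl/fl level of Syt1, Stmn2 (36.2 CPM) and Snap25 (16.8 CPM), so the neuronal sums had no common direction after injury. Corneal epithelial, lens and ciliary body markers summed to at most 21.2, 41.0 and 3.64 CPM in any library, and 2 of 2 tested corneal markers were called lower, 1 of 1 tested lens marker higher and 0 of 2 ciliary body markers called after injury. No marker was at 0 in every library and none outside the macrophage and lymphatic lists was called in iLECko, and the part of these cell types in the values below was not tested.

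Most axon guidance genes were expressed in the iris, 61 of 66 at a mean of at least 1 CPM over the 9 libraries and 45 at 10 CPM or more. Per kilobase of the longest annotated transcript, the highest mean level was that of Plxnb2, a plexin that binds class 4 semaphorins, at 83.5 CPM per kb. Sema3b, a secreted class 3 semaphorin, followed at 52.9 CPM per kb, then Plxnd1, an endothelial plexin, at 34.6, Efna1 (ephrin-A1) at 26.9 and Sema3f, a secreted ligand of neuropilin 2, at 26.1 CPM per kb. The lowest library of Plxnb2 (72.6 CPM per kb) lay above the highest library of Sema3b (70.3 CPM per kb), whereas the ranges of Sema3b (27.8 to 70.3), Plxnd1 (10.4 to 52.2), Efna1 (16.6 to 36.0) and Sema3f (21.6 to 30.1) overlapped.

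**Figure D1:**
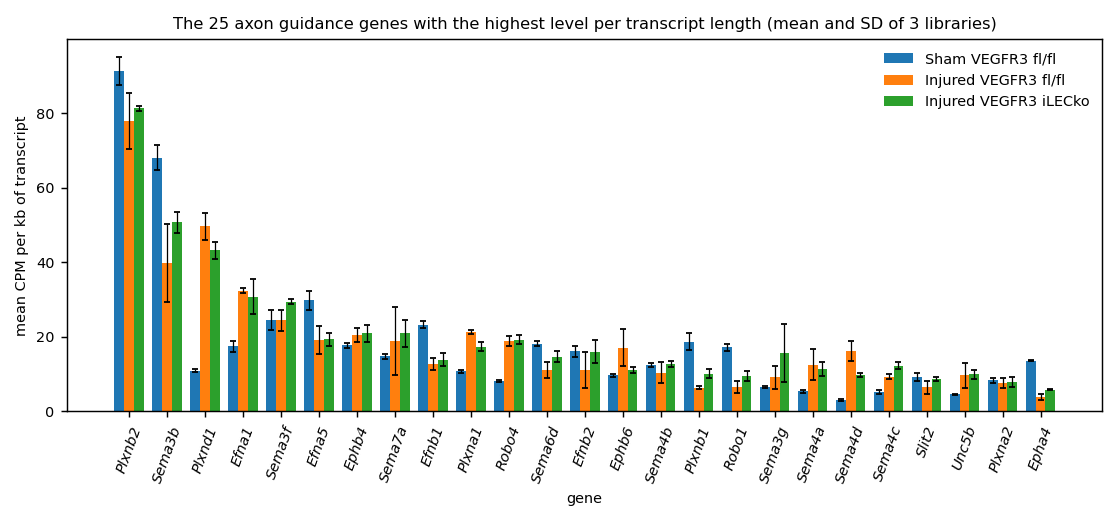
Bars show the mean level per kilobase of transcript (vertical axis, CPM per kb) in Sham VEGFR3 fl/fl (blue), injured VEGFR3 fl/fl (orange) and injured VEGFR3 iLECko (green) for the 25 axon guidance genes with the highest level, and lines show the SD over 3 libraries. Plxnb2 is highest in each group, and Plxnd1 is the gene among the first 5 with the widest gap between Sham and injured VEGFR3 fl/fl.

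After injury, axon guidance genes were called in both directions. Of the 64 members tested, 18 (28.1%) were called higher in injured VEGFR3 fl/fl than in Sham, beside 22.1% of all genes tested, and 17 (26.6%) were called lower, beside 17.5% of all genes. Every injured library lay above every Sham library for 22 members (34.4%; all genes, 33.9%) and below for 21 (32.8%; all genes, 32.4%). The median log2 fold change was −0.045 over the members and 0.01 over all genes. Among ligands 8 rose and 9 fell of 34, and among receptors 10 rose and 8 fell of 30. Scaling by library size alone shifted the median of all genes from 0.01 to −0.16 and turned 3323 higher and 2630 lower genes into 2783 and 3523, and it left 16 members higher and 20 lower, with no called member reversed.

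**Figure D2:**
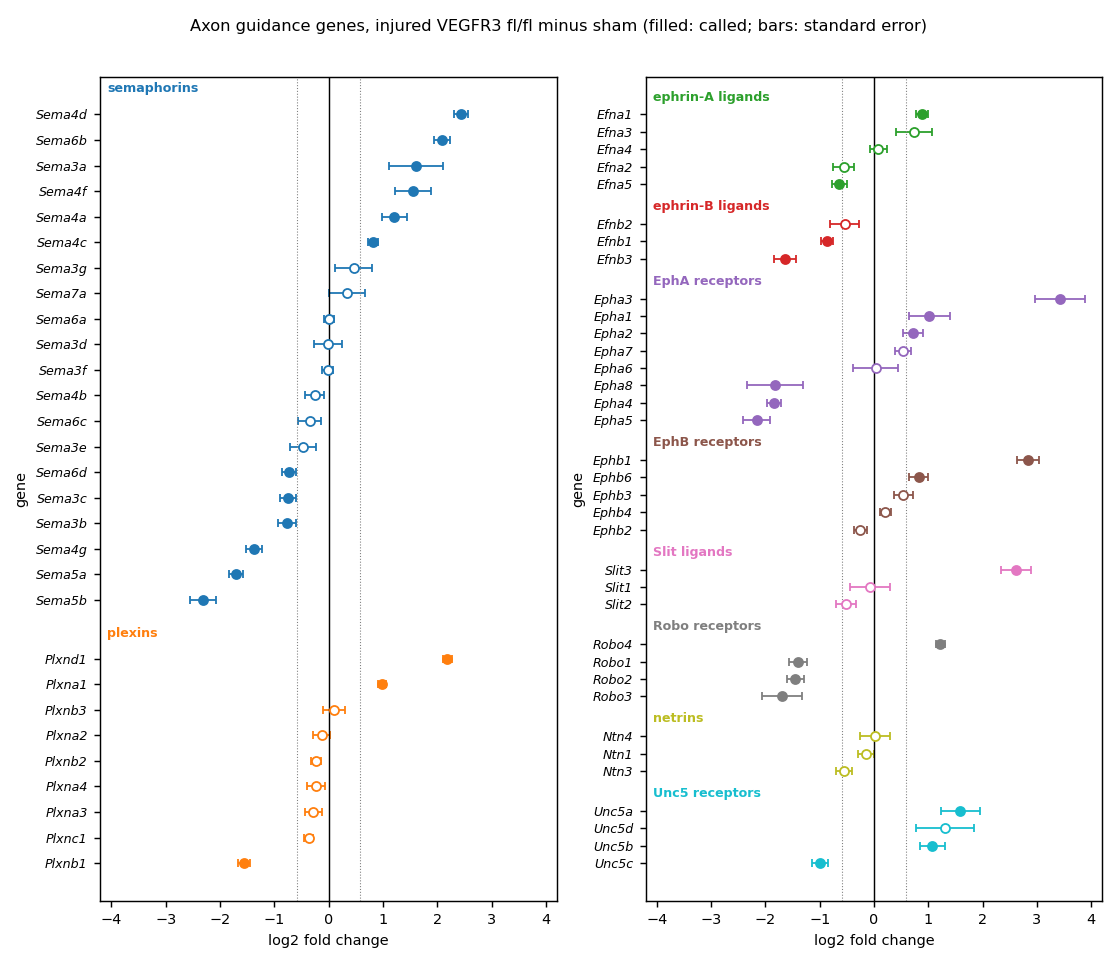
Points show the log2 fold change of injured VEGFR3 fl/fl against Sham VEGFR3 fl/fl (horizontal axis) for the 64 axon guidance genes tested, grouped and coloured by family, with bars for the standard error from 3 libraries per group. Filled points passed the test and dotted lines mark 1.5-fold in either direction, and most families hold filled points on both sides of 0, from Epha3 at 3.43 to Sema5b at −2.31.

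Of 20 semaphorins, 6 were called higher and 6 lower. Of the 6 transmembrane class 4 semaphorins, 4 rose and 1 fell (median log2 fold change 1.01), and both class 5 semaphorins fell (median −2.01). No difference between the classes was tested. Among the secreted class 3 members 1 rose and 2 fell of 7, and among the class 6 members 1 rose and 1 fell of 4. Sema7a, which is anchored by glycosylphosphatidylinositol and binds plexin C1 and integrin β1, ranged from 28.5 to 86.8 CPM after injury around the Sham values of 46.3 to 50.6 CPM and was not called (edgeR adjusted p = 0.392).

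Sema4d (NCBI Gene ID 20354, chr13:51685529-51793678, GRCm38.p6) had the largest rise among semaphorins. It encodes CD100, a transmembrane ligand found on T cells and other immune cells that binds plexin B1 with high affinity and also CD72. Its level was 14.6, 12.4 and 13.0 CPM in Sham, 84.7, 60.5 and 72.7 CPM in injured VEGFR3 fl/fl and 45.6, 40.6 and 43.6 CPM in iLECko. All 3 groups were separate, with Sham lowest and injured VEGFR3 fl/fl highest. The log2 fold change after injury was 2.44 ± 0.13 (SE), or 5.44-fold (edgeR adjusted p = 6.72e-07). Summed macrophage and T cell markers had the same order of groups, and their part in these levels was not tested.

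Sema6b, a class 6 transmembrane ligand of A-type plexins, rose from 6.15, 7.68 and 10.1 CPM in Sham to 33.0, 34.4 and 33.7 CPM after injury and was at 37.7, 39.8 and 39.4 CPM in iLECko. The injured libraries lay within a narrow band above every Sham library, and the log2 fold change was 2.08 ± 0.15 (SE, edgeR adjusted p = 4.04e-06). Sema4f, another class 4 member, was at 2.71, 3.50 and 1.52 CPM in Sham, 7.10, 9.95 and 5.68 CPM after injury and 8.65, 5.72 and 7.48 CPM in iLECko. Every injured library exceeded every Sham library, by 1.55 ± 0.33 on the log2 scale (SE, edgeR adjusted p = 0.00279). Sema4a and Sema4c rose less, with log2 fold changes of 1.21 and 0.82.

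Sema3a, the secreted repellent that acts through neuropilin 1, also rose, by an amount that depended on injured replicate 1. It was at 2.99, 3.78 and 3.83 CPM in Sham, 20.9, 6.91 and 4.71 CPM after injury and 5.84, 6.80 and 8.81 CPM in iLECko. The injured libraries of both genotypes lay above Sham and overlapped each other, and injured VEGFR3 fl/fl replicate 1 stood far above the other two. The log2 fold change of 1.61 ± 0.49 (SE, edgeR adjusted p = 0.0186) became 0.71 without injured replicate 1 and was still called (edgeR adjusted p = 0.0344), and the call was lost without Sham replicate 1 (edgeR adjusted p = 0.0643).

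Sema5b and Sema5a, transmembrane semaphorins with thrombospondin repeats, had the largest falls among semaphorins. Sema5b went from 35.7, 23.8 and 35.6 CPM in Sham to 7.77, 5.62 and 5.80 CPM after injury, with 15.0, 9.85 and 8.98 CPM in iLECko. Its highest injured library was below its lowest Sham library, and it fell by 2.31 ± 0.24 on the log2 scale (SE, edgeR adjusted p = 4.31e-05). Sema5a went from 48.3, 48.8 and 41.2 CPM to 15.1, 15.6 and 11.4 CPM, and was at 11.2, 9.91 and 10.2 CPM in iLECko. It likewise showed no overlap and fell by 1.71 ± 0.13 (SE, edgeR adjusted p = 5.48e-06).

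Sema4g was the class 4 semaphorin that fell, from 16.3, 15.0 and 16.3 CPM in Sham to 5.34, 6.79 and 6.26 CPM after injury, and it was at 5.20, 6.80 and 5.99 CPM in iLECko. The injured libraries of both genotypes lay below all Sham libraries, and the log2 fold change was −1.37 ± 0.14 (SE, edgeR adjusted p = 4.20e-05). Sema3b, the semaphorin with the highest level per length, stood at 221, 239 and 241 CPM in Sham, 95.6, 157 and 158 CPM after injury and 185, 168 and 169 CPM in iLECko. Its groups did not overlap, with injured replicate 1 the lowest, and it fell by 0.77 ± 0.17 on the log2 scale (SE, edgeR adjusted p = 0.0034). Without injured replicate 1 the fall was 1.49-fold, just under the threshold (log2 fold change −0.57).

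Sema3c and Sema6d fell by less, by 0.75 and 0.73 on the log2 scale. Sema3f did not pass the test, at 86.7, 73.3 and 91.0 CPM in Sham, 74.6, 93.6 and 80.1 CPM after injury and 102, 99.5 and 98.0 CPM in iLECko. The Sham and injured VEGFR3 fl/fl libraries of Sema3f overlapped fully (log2 fold change −0.015 ± 0.10 (SE), edgeR adjusted p = 0.908). The remaining 6 semaphorins had log2 fold changes between −0.47 (Sema3e, the neuropilin-independent ligand of plexin D1) and 0.46 (Sema3g), with overlapping groups.

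Of the 9 plexins, 2 rose, 1 fell and 6 were not called. Plxnd1 (NCBI Gene ID 67784, chr6:115954811-115995339), the receptor of Sema3e in endothelium, had the smallest p of all members after injury. Its level was 76.8, 72.1 and 78.0 CPM in Sham, 315, 354 and 360 CPM after injury and 292, 287 and 317 CPM in iLECko. Both injured groups lay far above Sham, and the change was 4.53-fold (log2 fold change 2.18 ± 0.083 (SE), edgeR adjusted p = 1.23e-07). Plxna1, which pairs with neuropilins as a receptor for class 3 semaphorins, rose from 101, 94.7 and 95.0 CPM to 196, 195 and 187 CPM and was at 157, 167 and 145 CPM in iLECko. Its 3 groups were separate, and the log2 fold change after injury was 0.99 ± 0.072 (SE, edgeR adjusted p = 4.54e-06).

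Plxnb1 (NCBI Gene ID 235611, chr9:109093849-109119915), the receptor of Sema4d, was the plexin that fell. It was at 176, 139 and 171 CPM in Sham, 52.8, 59.5 and 52.5 CPM in injured VEGFR3 fl/fl and 93.8, 92.3 and 75.4 CPM in iLECko. The groups were again separate, here with Sham highest and injured VEGFR3 fl/fl lowest, and the change after injury was 2.95-fold lower (log2 fold change −1.56 ± 0.12 (SE), edgeR adjusted p = 5.77e-06). An antisense gene, Gm7628, overlaps its exons by 257 bases at a mean of 3.88 CPM, and whether counting used strand is not given in the sources used here. Plxnb2, the most abundant member, was at 594, 569 and 617 CPM in Sham, 471, 561 and 487 CPM after injury and 531, 523 and 531 CPM in iLECko. Its injured VEGFR3 fl/fl libraries lay just below the Sham libraries, by 0.23 ± 0.086 on the log2 scale (SE, edgeR adjusted p = 0.0443), which is under 1.5-fold. The other 5 plexins not called had log2 fold changes from −0.37 (Plxnc1) to 0.096 (Plxnb3).

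Of 8 ephrins, 1 was called higher and 3 lower, and of 13 Eph receptors tested, 5 were called higher and 3 lower. Efna1, a ligand found on endothelium, rose from 27.0, 31.5 and 27.4 CPM in Sham to 52.3, 52.0 and 54.1 CPM after injury and was at 46.9, 45.0 and 58.8 CPM in iLECko. All injured libraries exceeded Sham, and the log2 fold change was 0.88 ± 0.11 (SE, edgeR adjusted p = 0.00011). Efna5, a ligand that binds several EphA receptors with high affinity, was at 109, 123 and 129 CPM in Sham, 93.8, 72.6 and 64.7 CPM after injury and 85.9, 75.6 and 71.5 CPM in iLECko. The injured libraries of both genotypes overlapped each other and lay below Sham, and it fell by 0.64 ± 0.14 on the log2 scale (SE, edgeR adjusted p = 0.00298). This fall was under 1.5-fold without injured replicate 3 (1.44-fold) and with the Y-linked level as a covariate (1.48-fold). The remaining ephrin-A ligands were not called, with log2 fold changes of −0.56 for Efna2, 0.73 for Efna3 and 0.081 for Efna4.

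The promoters of these ephrin-A ligands are shown because the genes moved in opposite directions. RefSeq promoters of GRCm38.p6, covering 250 bases before the start, were matched for 57 of the 66 members (73 promoters). The 150 bases next to the start are printed 5′ to 3′ on the gene's strand for Efna1 (chr3:89280952-89281101, minus strand) and Efna5 (chr17:62881318-62881467, minus strand). Capitals mark GC boxes, searched as GGGCGG on both strands, of which Efna1 has 1 and Efna5 has 3 in these bases.
Efna1: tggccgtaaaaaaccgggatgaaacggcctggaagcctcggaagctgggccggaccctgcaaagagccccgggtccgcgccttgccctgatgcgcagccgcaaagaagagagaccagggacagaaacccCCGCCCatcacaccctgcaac
Efna5: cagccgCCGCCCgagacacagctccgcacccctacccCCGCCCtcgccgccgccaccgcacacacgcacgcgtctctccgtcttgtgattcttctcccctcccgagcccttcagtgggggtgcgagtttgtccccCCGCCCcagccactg
Over the 250 bases, 69.9% of the members' promoters held a GC box, against 54.3% of the promoters of all genes tested and 32.7% of all promoters in the table. The letters TATAAA, searched on both strands, were in 2.74% of the members' promoters, against 6.98% and 12.4% in the same 2 sets. These matches describe the letters in the window and were not tied to any change in level.

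Both ephrin-B ligands that were called fell. Efnb3 was at 11.5, 9.83 and 7.94 CPM in Sham, 3.76, 3.16 and 2.47 CPM after injury and 3.68, 3.45 and 3.22 CPM in iLECko. No injured library reached the lowest Sham library, and the log2 fold change was −1.64 ± 0.21 (SE, edgeR adjusted p = 0.000136). Efnb1 went from 78.4, 73.0 and 76.6 CPM to 36.7, 47.1 and 41.2 CPM, with 50.8, 45.9 and 39.4 CPM in iLECko. It fell by 0.87 ± 0.11 on the log2 scale (SE, edgeR adjusted p = 0.000153), with every injured library below Sham. Efnb2, the arterial ligand of the venous receptor EphB4, ranged from 32.1 to 77.1 CPM after injury and from 72.9 to 85.5 CPM in Sham, and was not called (edgeR adjusted p = 0.111).

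Among EphA receptors 3 rose and 3 fell of 8 tested, and Epha3 had the largest rise of all members. EphA3, which binds ephrin-A5 with high affinity, is expressed by mesenchymal cells as well as neurons. Epha3 (NCBI Gene ID 13837) was at 5.37, 4.74 and 4.84 CPM in Sham, 53.0, 25.2 and 83.3 CPM after injury and 84.2, 60.9 and 36.7 CPM in iLECko. Every injured library lay far above Sham, but the injured libraries differed among themselves. The change was 10.8-fold (log2 fold change 3.43 ± 0.46 (SE), edgeR adjusted p = 0.000196), and the log2 value ranged from 2.97 to 3.77 over the alternatives. Its 150 promoter bases (chr16:63864176-63864325, minus strand) are shown as those of the member with the largest rise, and unlike those of Efna1 and Efna5 they hold 0 GC boxes.
Epha3: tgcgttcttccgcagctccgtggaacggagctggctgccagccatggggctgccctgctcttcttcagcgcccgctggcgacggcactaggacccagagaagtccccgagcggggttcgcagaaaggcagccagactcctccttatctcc

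Epha1, an epithelial EphA receptor, was at 1.44, 1.19 and 1.58 CPM in Sham, 2.67, 4.21 and 1.67 CPM after injury and 1.93, 3.06 and 3.45 CPM in iLECko. Injured replicate 3 was close to the Sham libraries. The log2 fold change of 1.02 ± 0.37 (SE, edgeR adjusted p = 0.039) fell to 0.63 without injured replicate 2 (edgeR adjusted p = 0.16), and the call was lost in 9 alternatives. Its exons also overlap those of Zyx on the opposite strand by 236 bases, and with Zyx at a mean of 236 CPM the Epha1 values are uncertain. Epha2, which binds ephrin-A1, rose by 0.72 on the log2 scale, and the rise was under 1.5-fold without injured replicate 3 (1.47-fold).

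Epha5 and Epha4, both known for repulsive guidance of axons, fell. Epha5 was at 19.6, 15.8 and 19.2 CPM in Sham, 2.43, 4.51 and 5.28 CPM after injury and 7.77, 7.08 and 7.89 CPM in iLECko. The 3 groups were separate, and it fell by 2.16 ± 0.25 on the log2 scale after injury (SE, edgeR adjusted p = 6.83e-05). Epha4, which binds ephrins of both classes, was at 86.2, 85.5 and 87.1 CPM in Sham, 18.9, 24.8 and 28.6 CPM after injury and 36.2, 38.3 and 36.0 CPM in iLECko. Its groups were separate too, and it fell by 1.84 ± 0.13 (SE, edgeR adjusted p = 3.25e-06). The third, Epha8, was near 1 CPM in Sham (0.847 to 1.5 CPM) and at 0.121 to 0.527 CPM after injury (log2 fold change −1.82), and its call was lost without Sham replicate 1 (edgeR adjusted p = 0.0558). Epha7 (log2 fold change 0.53) and Epha6 (0.027) were not called.

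EphB receptors had 2 rises and 0 falls among 5. Ephb1 was at 1.38, 1.02 and 0.901 CPM in Sham, 8.74, 6.91 and 7.92 CPM after injury and 6.66, 6.51 and 6.45 CPM in iLECko. All injured libraries exceeded Sham, by 7.09-fold (log2 fold change 2.83 ± 0.20 (SE), edgeR adjusted p = 4.05e-06). Ephb6, whose kinase domain is inactive, was at 38.2, 35.1 and 35.6 CPM in Sham, 85.4, 55.0 and 52.0 CPM after injury and 45.0, 41.0 and 39.4 CPM in iLECko. The groups were separate, with injured replicate 1 the highest, and the log2 fold change of 0.82 ± 0.17 (SE, edgeR adjusted p = 0.00254) was 0.56 without that library, or 1.47-fold. Ephb3 (log2 fold change 0.54), Ephb4 (0.21) and Ephb2 (−0.25) were not called.

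Slit3 rose while Slit1 and Slit2 were not called. Slit3, a secreted Robo ligand also made by stromal and vascular cells, was at 2.33, 2.32 and 2.48 CPM in Sham, 18.1, 9.19 and 16.3 CPM after injury and 11.7, 18.5 and 16.6 CPM in iLECko. The Sham libraries were almost equal and every injured library lay well above them, by 6.10-fold (log2 fold change 2.61 ± 0.28 (SE), edgeR adjusted p = 4.62e-05). Slit2, the Slit with the highest level, ranged from 79.4 to 100 CPM in Sham and from 46.2 to 81.9 CPM after injury (log2 fold change −0.51, 1.42-fold lower). The promoter of Slit3 (chr11:35121306-35121455, plus strand) is shown beside that of Epha3 as the ligand with the largest rise, and its 150 bases hold 5 GC boxes.
Slit3: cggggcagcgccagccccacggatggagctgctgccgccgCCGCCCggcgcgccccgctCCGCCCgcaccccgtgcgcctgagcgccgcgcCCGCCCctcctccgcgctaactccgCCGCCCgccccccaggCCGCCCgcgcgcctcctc

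Among Robo receptors, 1 rose and 3 fell of 4. Robo4, the Robo of vascular endothelium, was at 38.6, 40.9 and 40.3 CPM in Sham, 88.8, 89.7 and 101 CPM after injury and 102, 90.3 and 92.4 CPM in iLECko. Both injured groups lay far above Sham, and the log2 fold change was 1.22 ± 0.077 (SE, edgeR adjusted p = 1.90e-06). Robo1, a receptor that mediates Slit repulsion, was at 132, 136 and 123 CPM in Sham, 36.1, 56.8 and 54.8 CPM after injury and 60.0, 72.3 and 80.9 CPM in iLECko. The groups were separate, and it fell by 1.40 ± 0.17 on the log2 scale (SE, edgeR adjusted p = 0.000102). Robo2 went from 56.1, 47.1 and 48.8 CPM to 17.1, 17 and 21.6 CPM, with 18.2, 27.6 and 24.8 CPM in iLECko. It fell by 1.45 ± 0.16 (SE, edgeR adjusted p = 5.87e-05), with every injured library below Sham, and Robo3, at 1.66 CPM or less in every library, fell by 1.69.

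Netrins were not called, and of the Unc5 receptors 2 rose and 1 fell of 4. Among the 3 netrins tested, Ntn1 had a log2 fold change of −0.15, Ntn4 of 0.025 and Ntn3 of −0.56, the last with no overlap but under 1.5-fold. Unc5b, the Unc5 receptor of endothelium, was at 28.2, 26.1 and 26.5 CPM in Sham, 34.3, 71.7 and 63.5 CPM after injury and 49.9, 61.6 and 63.7 CPM in iLECko. Injured replicate 1 was nearest to Sham, and the log2 fold change was 1.07 ± 0.23 (SE, edgeR adjusted p = 0.00333).

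Unc5a was at 1.61, 0.904 and 1.30 CPM in Sham, 3.03, 5.56 and 2.87 CPM after injury and 3.91, 2.32 and 3.80 CPM in iLECko. It rose by 1.59 ± 0.36 on the log2 scale (SE, edgeR adjusted p = 0.0043), from a low level, with every injured library above Sham. Unc5c, which mediates repulsion from netrin 1, was at 59.1, 55.7 and 49.1 CPM in Sham, 21.5, 33.8 and 26.5 CPM after injury and 40.3, 38.9 and 43.9 CPM in iLECko. The 3 groups were separate, and it fell by 1.00 ± 0.15 (SE, edgeR adjusted p = 0.000364). Unc5d was under 1 CPM in every Sham and injured VEGFR3 fl/fl library and was not called (log2 fold change 1.30, edgeR adjusted p = 0.0596).

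**Figure D3:**
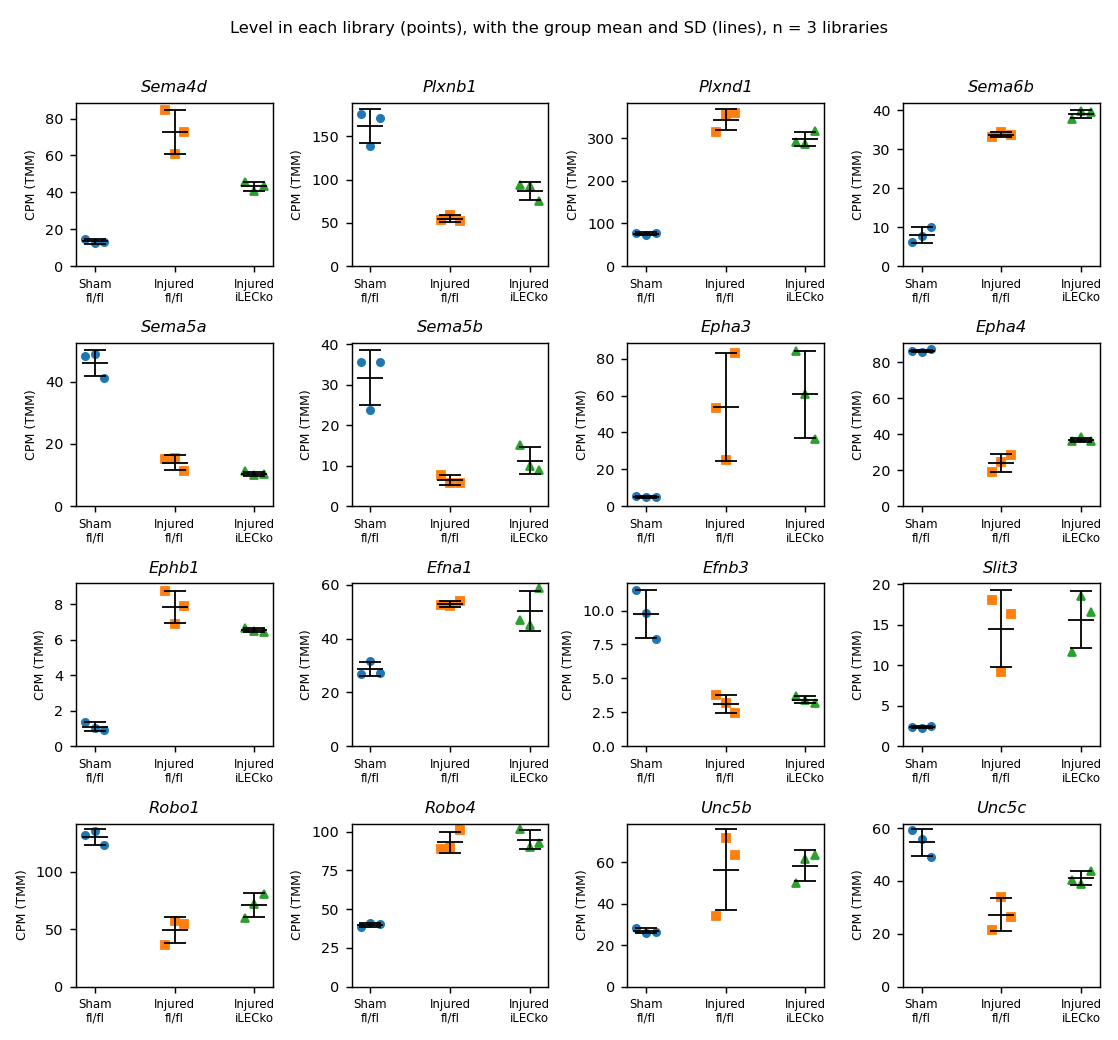
Each panel shows the level of 1 gene (vertical axis, CPM on the TMM scale, starting at 0) in every library of Sham VEGFR3 fl/fl (circles), injured VEGFR3 fl/fl (squares) and injured VEGFR3 iLECko (triangles), with lines for the mean and SD of 3 libraries. Sema4d and Plxnb1 are the genes called between the injured groups, with Sema4d lower (40.6 to 45.6 CPM) and Plxnb1 higher (75.4 to 93.8 CPM) in iLECko than in injured VEGFR3 fl/fl.

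Between the injured groups, a ligand and its receptor were called among the axon guidance genes. Plxnb1 was called higher in iLECko (1 of 64 members, or 1.56%, beside 0.573% of all genes tested) and Sema4d was called lower (1 of 64, or 1.56%, beside 0.466%). Sema4d was 1.68-fold lower in iLECko, at a mean of 43.2 ± 2.53 CPM against 72.6 ± 12.1 CPM (SD, n = 3 each; log2 fold change −0.75 ± 0.12 (SE), edgeR adjusted p = 0.0317). Plxnb1 was 1.59-fold higher, at 87.1 ± 10.2 CPM against 55.0 ± 3.97 CPM (SD, n = 3 each; log2 fold change 0.66 ± 0.12 (SE), edgeR adjusted p = 0.0392). For both genes the iLECko libraries lay between Sham and injured VEGFR3 fl/fl without overlap. In Sham, by comparison, the means were 13.3 ± 1.11 CPM for Sema4d and 162 ± 19.7 CPM for Plxnb1 (SD, n = 3 each).

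Both calls stood close to the threshold. In a fit of the 6 injured libraries alone, the edgeR adjusted p was 0.107 for Sema4d and 0.102 for Plxnb1, and across all alternatives, DESeq2 included, the adjusted p ranged from 2.65e-05 to 0.26 and from 5.75e-05 to 0.272, while the log2 fold change stayed between −0.86 and −0.62 for Sema4d and between 0.61 and 0.76 for Plxnb1. The largest p of each came with a Y-linked covariate, the mean of log2(CPM + 0.5) over the 4 Y-linked genes. Their summed level was near 1 CPM in all iLECko libraries and in injured VEGFR3 fl/fl replicate 3. That replicate had 72.7 CPM of Sema4d, above every iLECko library, and 52.5 CPM of Plxnb1, below every iLECko library. As 1 library, it cannot separate sex from genotype. Without that replicate, the log2 fold change was −0.75 for Sema4d (edgeR adjusted p = 0.0404) and 0.63 for Plxnb1 (edgeR adjusted p = 0.0532). Leaving out other single libraries also ended the call, for Sema4d any iLECko library (edgeR adjusted p of 0.0661 to 0.137) and Sham replicates 1 (0.0579) and 3 (0.0745), and for Plxnb1 iLECko replicates 1 (0.0796) and 2 (0.145), injured replicate 1 (0.0636) and Sham replicates 1 (0.0681) and 3 (0.0755). Macrophage marker sums were lower in iLECko (1670 to 1909 CPM) than in injured VEGFR3 fl/fl (2723 to 3000 CPM), as were T cell marker sums (7.13 to 8.50 against 13.6 to 14.9 CPM), and their part in the difference of Sema4d was not tested. Beside Plxnb1, iris and ciliary epithelial markers summed to 1290 to 1488 CPM in iLECko and 1258 to 1423 CPM in injured VEGFR3 fl/fl. Most of this sum was Aqp1 (774 to 1025 and 945 to 1081 CPM), which can hide changes in the other epithelial markers. Pigment cell markers summed to 4975 to 7010 and 3325 to 5739 CPM, and none of these 10 epithelial and pigment markers was called. Of these, Pax6 was at 282 to 339 CPM in iLECko and 194 to 224 CPM in injured VEGFR3 fl/fl (log2 fold change 0.52, edgeR adjusted p = 0.0399, under 1.5-fold). Mitf, Tyr and Tyrp1 in iLECko also lay above every injured VEGFR3 fl/fl library. Six3 (28.7 to 49.2 against 26.7 to 29.5 CPM), Otx2 (46.6 to 72.0 against 37.5 to 52.9 CPM), Aqp1, Dct, Mlana and Pmel overlapped. The part of these markers in the difference of Plxnb1 was not tested.

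**Figure D4:**
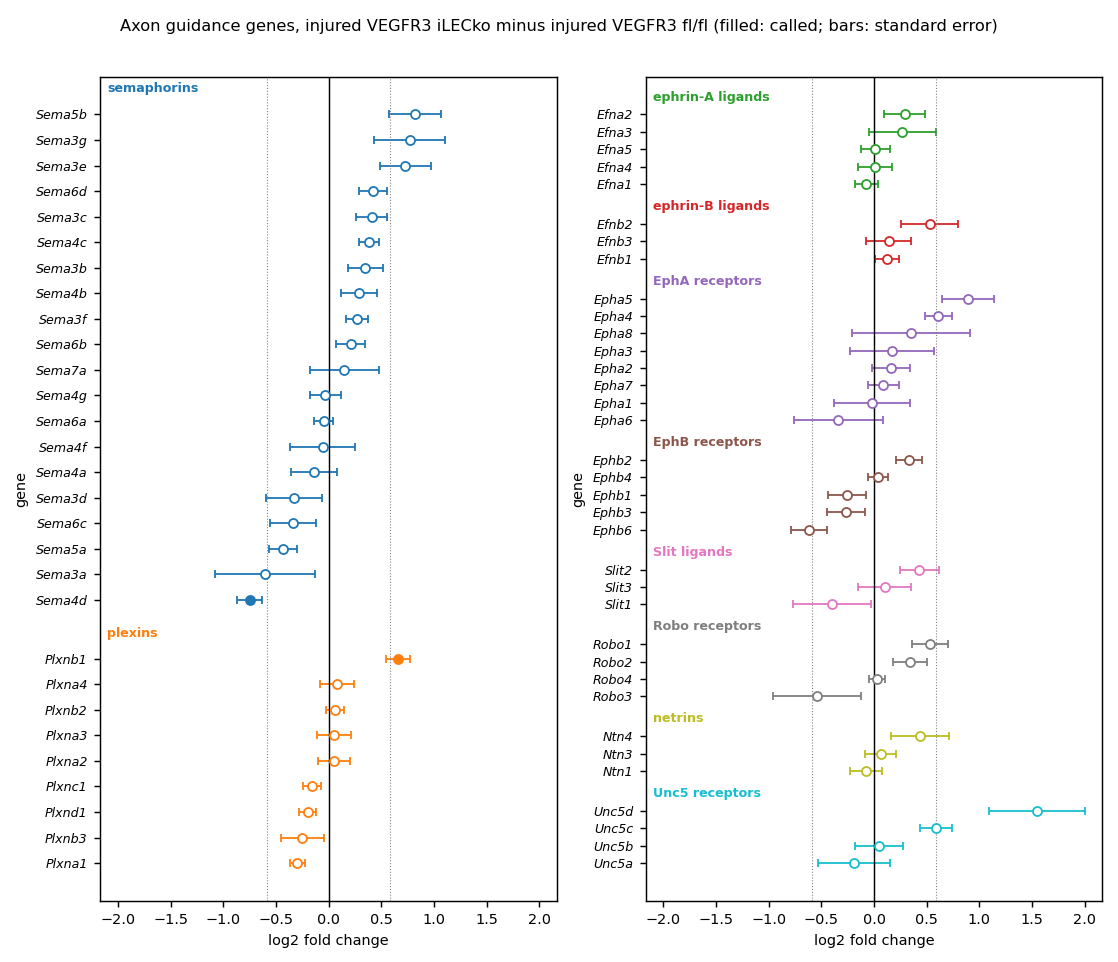
Points show the log2 fold change of injured VEGFR3 iLECko against injured VEGFR3 fl/fl (horizontal axis) for the 64 axon guidance genes tested, grouped and coloured by family, with bars for the standard error from 3 libraries per group and dotted lines at 1.5-fold. Only Plxnb1 (0.66) and Sema4d (−0.75) are filled, as the members that passed the test.

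The other 62 members tested did not pass the test between the injured groups, and 20 of 64 (31.2%) had an unadjusted p under 0.05, beside 24.5% of all genes tested. Every iLECko library lay above every injured VEGFR3 fl/fl library for 14 members (21.9%; all genes, 12.4%) and below for 5 (7.81%; all genes, 14.3%). The median log2 fold change was 0.072 over the members and −0.0099 over all genes. The 5 members below were Sema4d, Ephb6, Sema5a, Plxna1 and Ephb1, and the 14 above were the semaphorins Sema3b, Sema3c, Sema3e, Sema3f, Sema4c, Sema5b, Sema6b and Sema6d and the receptors Plxnb1, Epha4, Epha5, Robo1, Unc5c and Unc5d.

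Besides Sema4d and Plxnb1, DESeq2 called 5 members, which are given here because of that call and lay near the threshold in edgeR. Epha4 had a log2 fold change of 0.61 ± 0.13 in iLECko (SE, edgeR adjusted p = 0.0518), and Unc5c one of 0.59 ± 0.15 (SE, edgeR adjusted p = 0.0736). Epha5 had 0.89 ± 0.25 (SE, edgeR adjusted p = 0.084), Sema5b 0.82 ± 0.24 (SE, edgeR adjusted p = 0.10) and Ephb6 −0.62 ± 0.17 (SE, edgeR adjusted p = 0.084). In DESeq2 the adjusted p was 0.000997 for Epha4, 0.0101 for Unc5c, 0.0127 for Epha5, 0.0261 for Sema5b and 0.0163 for Ephb6. Over all genes, DESeq2 called 349 higher and 281 lower, against 86 and 70 in edgeR. Unc5d, with a log2 fold change of 1.55 ± 0.46 (SE, edgeR adjusted p = 0.0986), was not called in DESeq2. Of the members with the largest rises after injury apart from Sema4d, the log2 fold changes between the injured groups were 0.17 ± 0.40 for Epha3 (SE, edgeR adjusted p = 0.817), −0.26 ± 0.18 for Ephb1 (0.379), 0.10 ± 0.25 for Slit3 (0.826) and −0.20 ± 0.079 for Plxnd1 (0.17), although a p above the threshold does not show that levels were alike.

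Partners of these and related guidance genes were read from a list of 69 co-receptors, other ligands and signal transducers. Of these, 68 were in the table and 66 were tested. After injury 17 of these 66 were called higher and 15 lower, beside 22.1% and 17.5% of all genes tested. They were 3 and 3 of 14 co-receptors, 2 and 3 of 8 other ligands, and 12 and 9 of 44 signal transducers. Nrp1 and Nrp2, the neuropilins that pair with plexins, were at 173 to 187 and 167 to 192 CPM in Sham and at 203 to 229 and 222 to 244 CPM after injury. Their log2 fold changes of 0.24 (edgeR adjusted p = 0.0402) and 0.37 (edgeR adjusted p = 0.0157) were under 1.5-fold. Dcc, the attractive netrin receptor, was at a low 0.886, 0.904 and 1.18 CPM in Sham and 0.243, 0.117 and 0.287 CPM after injury, and it fell by 2.16 (edgeR adjusted p = 0.00242). Neo1, the related receptor neogenin, was not called (log2 fold change −0.36, edgeR adjusted p = 0.0649).

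Cd72, the receptor of Sema4d on immune cells, was higher after injury, at 33.4, 13.9 and 18.4 CPM against 5.82, 7.51 and 6.36 CPM in Sham (log2 fold change 1.74, edgeR adjusted p = 0.000832). In iLECko it was at 10.7, 9.06 and 8.17 CPM, below every injured VEGFR3 fl/fl library but not called (log2 fold change −1.23, edgeR adjusted p = 0.0651). Lrrc4c is the ligand of netrin-G1, which is not among the members examined here. Lrrc4c was the only gene of the list called between the injured groups (1 of 66 called higher, beside 0.573% of all genes tested). It was at 36.3 to 37.5 CPM in Sham, 9.04, 12.2 and 12.3 CPM in injured VEGFR3 fl/fl and 21.7, 20.4 and 18.9 CPM in iLECko. Its 3 groups were separate, with a log2 fold change of −1.71 after injury (edgeR adjusted p = 3.81e-06) and 0.86 in iLECko (edgeR adjusted p = 0.0263). Cd72 and Lrrc4c were chosen from the list after their values were seen.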

How the data were processed

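Iris RNA was sequenced as single-end reads of 50 bases from 9 libraries, 3 per group, each of 3 combined irises. The values deposited by the authors were estimated counts per gene without normalization, of which 9.83% to 10.3% per library were not whole numbers. The submitters' processing notes name HISAT2 2.0.4, Bowtie2 2.2.5, DESeq2 1.4.5 and mm10, and the program that estimated the counts, its annotation and its use of strand are not given in the sources used here. A combined table with identical values was not used. Groups were taken from titles, treatments and descriptions. Nothing in the labels says that replicates came from separate litters, so p-values measure the spread between these libraries.

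Counts were rounded to whole numbers, filtered with filterByExpr (15010 of 18349 genes kept) and scaled by TMM (factors 0.90 to 1.09) in edgeR 4.0.16 and R 4.3.3. One quasi-likelihood fit of 3 groups held all 9 libraries, Benjamini-Hochberg adjustment covered all genes tested, and standard errors came from the F statistic. The procedure was tested on simulated data. Lengths came from the longest GENCODE M21 transcript, found for 96.1% of genes and all members. Gene positions and promoters came from RefSeq (GRCm38.p6).

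The members, partner and marker lists were chosen with earlier results of these data known. Values in every library are given for members called between the injured groups, for up to 4 members per family called in each direction after injury with a mean of at least 1 CPM and no overlap, and for the 5 highest per length. Alternatives were RLE or no scaling, no filter, an approximate TPM filter, DESeq2 1.42.0, fewer libraries, no fold threshold, a Y-linked covariate, a replicate block and each library left out in turn.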

Additional observations from a re-analysis of the deposited data

How the results depend on the processing

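After injury, the counts of axon guidance genes called stayed within 1.5 times of 18 higher and 17 lower under every alternative run. Over the named members and all alternatives, 490 calls after injury were kept and 14, in 5 members, lost the call, and 0 reversed. The alternative without a fold threshold reused the main fit, so its calls could not be lost. Leaving out an iLECko library kept all Sham and injured VEGFR3 fl/fl libraries of this comparison. Between the injured groups 1 member was called higher and 1 lower. The count higher was 2 with the approximate TPM filter (Plxnb1 and Epha4, adjusted p = 0.0494) and 5 with DESeq2, and 0 with the 6 compared libraries only, the Y-linked covariate and the replicate block. It ranged from 0 to 2 when single libraries were left out. Counts over all genes moved likewise, from 86 higher and 70 lower to 349 and 281 with DESeq2, 0 and 0 with the 6 libraries, 0 and 2 with the covariate and 11 and 13 with the block. For members, the count lower was 2 with DESeq2, 0 with the 6 compared libraries only and with the Y-linked covariate, and 0 to 1 when single libraries were left out. At an unadjusted p under 0.05, the edgeR fits gave 17 members (27.4%; all genes, 19.1%) with the 6 compared libraries only, 11 (17.2%; 8.87%) with the covariate and 19 (29.7%; 21.7%) with the replicate block. Of the calls of Sema4d and Plxnb1 under the alternatives, 20 were kept, 16 lost the call and 0 reversed. Those kept include the alternative without a fold threshold, where no call could be lost.

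Deviations from the group means of same-numbered libraries correlated at −0.37 to 0.163, which gave no sign that replicate numbers pair the samples. With 3 libraries per group, these correlations cannot exclude a shared litter or batch. With a replicate block, 17 members were higher and 17 lower after injury, and 0 were higher and 1 (Sema4d, edgeR adjusted p = 0.0429) lower in iLECko. Members near 1 CPM, such as Epha1, Epha8, Robo3 and Unc5a, rest on few counts.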
